A study of Mus musculus with 19 samples.

Results

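The transcripts described here mark the glial cells that ensheathe sensory neurons. They form a list of 31 satellite glia and Schwann cell genes, chosen by name with no threshold on measured values, though with earlier results of these data known, and 30 of the 31 were among the 12629 genes of the expression table. The connexin gene Gjc3 was the 1 gene without a row. The libraries came from dorsal root ganglion (DRG) cells that had been dissociated and sorted for green fluorescence, a sort made to collect neurons that carry a viral GFP, so these genes are known mainly from cells other than those the sort was aimed at. The question addressed was how much glial RNA each group of libraries held, and whether myelin genes and satellite glia genes moved together.

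In a DRG each sensory neuron body is wrapped by satellite glia, which clear glutamate, supply lipid and cholesterol carriers and are joined to each other by gap junctions. Schwann cells ensheathe the axons, and those around large axons form myelin under the control of Sox10 and of promyelinating factors such as Pou3f1 and Egr2. After nerve injury Schwann cells of the peripheral nerve are known to lower their myelin genes, and satellite glia are known to raise Gfap.

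The 4 groups compared gave 19 libraries, and all animals had received a viral injection into the left C5-C8 DRGs. GFP-naive (5 libraries) carried AAV5-fGFP without lesion, and α9k1-naive (6 libraries) carried AAV5-α9-V5 together with AAV5-kindlin1-GFP, which encode an integrin subunit and an integrin activator, without lesion. GFP-crush (4 libraries) and α9k1-crush (4 libraries) carried the same vectors and a crush of the dorsal roots, and DRGs were taken 8 weeks after injection from all groups. By the paper the roots were crushed at the time of injection, so the crush libraries date from 8 weeks after the lesion. The fluorescent proteins were expressed from the CMV promoter and α9-V5 from the CAG promoter, neither of which is restricted to neurons. The labels describe C57BL/6 mice, whereas the study's methods describe adult male Lewis rats. Reads were aligned to the mouse genome, with 47.5 to 54.1% of reads aligned and 3.87 to 4.05% mismatched bases. Nothing in the labels says whether replicates came from separate animals, so p-values measure only the spread between these libraries. In such bulk samples fewer glial cells cannot be told apart from less glial RNA per cell.

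Values are log2 levels that the authors normalised for gene length and depth, which puts different genes on a scale per length. How completely the reads of each gene aligned to the mouse genome was not tested, and this limits ranks between genes. Libraries held 36.4 to 87.6 M read pairs, and library medians lay between 4.30 and 4.48. Intronic bases made up 2.04 to 2.32% in GFP-naive, 1.54 to 2.26% in α9k1-naive, 2.11 to 2.93% in GFP-crush and 1.35 to 1.62% in α9k1-crush. Intergenic bases made up 4.17 to 4.71%, 3.50 to 4.76%, 4.88 to 5.98% and 3.18 to 3.64% in the same order. Both measures are among the alignment metrics behind the covariates described below. The vector genes followed the labels: Fermt1, the kindlin-1 gene, stood at 0.62 ± 0.16 (SD, n = 5) with GFP-naive and 0.57 ± 0.12 (n = 4) with GFP-crush, against 5.58 ± 0.33 (n = 6) with α9k1-naive and 7.17 ± 0.66 (n = 4) with α9k1-crush. Itga9 stood at 2.11 ± 0.25 and 1.51 ± 0.44 in the GFP groups, and at 3.87 ± 0.92 and 6.59 ± 0.82 in the α9k1 groups. Of the 16 neuronal markers all were in the table, among them Tubb3 at 9.97 ± 0.08 and Uchl1 at 11.73 ± 0.17 in GFP-naive. Libraries of a group differed in glial genes as a whole: α9k1-crush replicate 3 was the lowest of its 4 libraries for 25 of the 30 members and for all 10 myelinating Schwann cell genes, against 28.9% of all genes, and α9k1-crush replicate 2 was the highest for 23, against 33.9% of all genes. GFP-naive replicate 4 was the highest of its group for 19 members (22.3% of all genes), and α9k1-naive replicate 3 was the lowest for 18 (13.01% of all genes).

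Differences were fitted with limma over all 19 libraries with 3 principal components of the alignment metrics as covariates, the study's design without its batch term, and a gene was called at an adjusted p (Benjamini-Hochberg over the 12629 genes) under 0.1. The third component did not overlap between α9k1-crush (-4.49 to -2.55) and the other groups (-1.59 to 5.03). Leaving out the covariates turned the sign of 13 of the 30 members in α9k1-crush against GFP-crush and of 4 in α9k1-crush against α9k1-naive, against 0 and 2 in the other comparisons of groups. For comparisons with α9k1-crush, values without covariates are added below for the members whose call or size they change most. Median-centring of the libraries, another scaling, moved the median difference of all genes between GFP-crush and GFP-naive from -0.08 to 0.06, and the calls there from 933 higher and 1984 lower to 1826 higher and 1180 lower. For α9k1-naive against GFP-naive the calls went from 1445 higher and 2224 lower to 1654 and 1725, and for the interaction from 171 and 107 to 118 and 167.

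Glial genes were among the most abundant transcripts of these sorted cells. Apoe, the apolipoprotein that satellite glia and other glia secrete, was the gene with the highest level of all 12629 in each of the 19 libraries, with a mean of 15.41. Pmp22, a membrane protein of compact myelin, ranked 16 at 11.31, Mbp, which compacts the cytoplasmic faces of myelin, ranked 37 at 10.68, and S100b, a calcium-binding protein of Schwann cells and satellite glia, ranked 49 at 10.42. The intermediate filament gene Vim ranked 74 and Plekhb1 ranked 81. In all, 16 of the 30 members lay in the top 10% of levels, and 1, Pou3f1 with a mean of 3.43 and rank 9026, lay under the median gene. Within groups the members' median SD was 0.16 in GFP-naive, 0.21 in α9k1-naive, 0.26 in GFP-crush and 0.36 in α9k1-crush, against 0.20, 0.23, 0.24 and 0.21 for all genes, so the α9k1-crush libraries differed from each other more in glial genes than in most genes.

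The promoters of 5 members whose levels the results turn on are shown so that the letters known to be read by glial transcription factors can be seen in place. RefSeq start sites on GRCm38.p6 gave at least 1 window for 24 of the 30 members. Each line is the 250 bases before a start site, 5′ to 3′ on the gene's strand. Capitals mark ACAAAG or ACAATG (SOX factors), CATTCC (TEAD factors), TGCAAAT (POU factors) or GTGGGCG (EGR factors), on either strand.
Prx, chr7:27499074-27499323, plus strand: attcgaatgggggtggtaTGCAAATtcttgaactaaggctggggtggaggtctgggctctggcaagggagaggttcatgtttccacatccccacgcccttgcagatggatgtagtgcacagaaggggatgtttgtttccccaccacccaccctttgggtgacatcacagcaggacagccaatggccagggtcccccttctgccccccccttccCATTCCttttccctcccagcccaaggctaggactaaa
Pmp22, chr11:63128732-63128981, plus strand: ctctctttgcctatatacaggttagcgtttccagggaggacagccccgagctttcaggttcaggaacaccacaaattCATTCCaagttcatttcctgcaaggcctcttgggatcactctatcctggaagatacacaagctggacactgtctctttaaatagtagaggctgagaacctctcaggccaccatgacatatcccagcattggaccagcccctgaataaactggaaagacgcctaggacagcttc
Mal, chr2:127656696-127656945, minus strand: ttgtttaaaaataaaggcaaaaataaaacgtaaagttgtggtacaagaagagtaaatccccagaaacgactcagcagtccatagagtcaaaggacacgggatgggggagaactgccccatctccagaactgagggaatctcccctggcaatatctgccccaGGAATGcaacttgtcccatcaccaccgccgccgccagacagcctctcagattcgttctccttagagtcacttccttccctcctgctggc
Pllp, chr8:94696243-94696492, minus strand: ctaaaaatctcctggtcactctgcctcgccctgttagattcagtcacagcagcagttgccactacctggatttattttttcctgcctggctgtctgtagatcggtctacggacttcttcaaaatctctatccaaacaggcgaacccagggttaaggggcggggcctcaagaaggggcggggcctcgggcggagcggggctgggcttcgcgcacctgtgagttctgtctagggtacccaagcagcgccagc
Apoe, chr7:19699189-19699438, minus strand: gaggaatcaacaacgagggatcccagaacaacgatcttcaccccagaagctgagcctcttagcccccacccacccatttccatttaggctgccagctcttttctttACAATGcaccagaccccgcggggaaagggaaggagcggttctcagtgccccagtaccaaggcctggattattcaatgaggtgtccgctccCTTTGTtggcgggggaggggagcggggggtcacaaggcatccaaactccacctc

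Prx held a POU match 232 bases and a TEAD match 37 bases before its start, Pmp22 and Mal each held a TEAD match (173 and 89 bases before the start), Pllp held none of the 4 motifs, and Apoe held SOX matches. For each gene the window shown is the first that RefSeq lists. Pmp22 has 4 windows, and the other 3 held no match. Apoe has 3 windows, and of the other 2 windows 1 held a TEAD match and 1 held no match. Over the 24 members with a window, TEAD letters were found in 8 (33.3%), against 14.4% of all 27025 genes with windows. SOX letters were found in 6 members (25%, against 28.2% of all genes), POU letters in 2 (8.33%, against 4.02%) and EGR letters in 1 (4.17%, against 7.98%). A match is a description of the sequence and not of binding, and windows of 1 gene can overlap. The animals' species is given differently by the labels and the methods, and these sequences are those of the mouse.

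**Figure D1:**
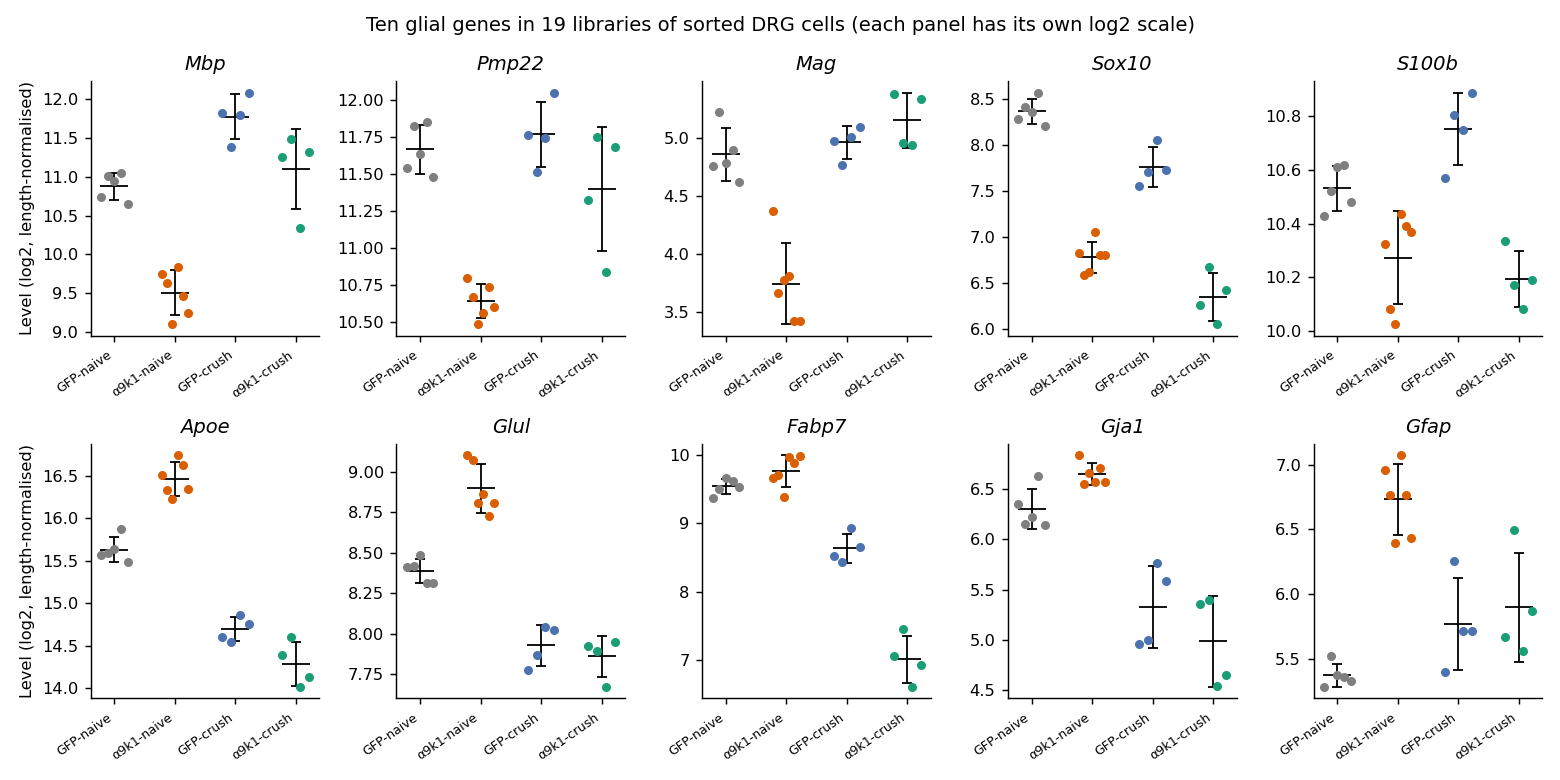
Levels of 10 glial genes (log2, length-normalised; each panel has its own scale) in the 19 libraries. Each point is a library, the black bar is the group mean and the error bar is the SD. Mbp, Pmp22 and Mag were lowest in the 6 α9k1-naive libraries, while Apoe and Glul were highest there.

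Without a lesion, α9k1 libraries held less myelin RNA than GFP libraries. All 8 myelin protein genes fell in α9k1-naive against GFP-naive, by 1.73-fold for Cnp to 6.83-fold for Pllp, and in each of the 8 the groups did not overlap. Over the 30 members 15 were called lower, against 17.6% of all genes, and 6 were called higher, against 11.4% of all genes. Without covariates 19 were called lower and 5 higher, against 29.5% and 16.5% of all genes. Without overlap, 16 members lay below and 3 above, where 13.2% and 8.43% of all genes did so. The median log2 fold change of the 8 myelin genes was -1.26, of the 30 members -0.38 and of all genes -0.08.

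Pllp, plasmolipin, a proteolipid of myelin and the promoter without a match above, stood at 7.18, 7.39, 7.31, 7.41 and 7.0 in GFP-naive and between 3.77 and 4.80 with a median of 4.17 in the 6 α9k1-naive libraries. Pllp after crush was at 7.53, 7.13, 7.67 and 7.89 in GFP-crush, and at 6.77, 7.13, 5.99 and 7.0 in α9k1-crush. Every α9k1-naive library was below every library of the other groups (log2 fold change -2.77 ± 0.25 SE, adjusted p = 1.53e-06). Ncmap, a protein of noncompact myelin, stood at 7.49, 7.48, 7.56, 7.65 and 7.39 in GFP-naive and between 4.37 and 5.08 with a median of 4.87 in the 6 α9k1-naive libraries (log2 fold change -2.51 ± 0.27 SE, adjusted p = 1.01e-05). Ncmap after crush was at 8.18, 7.83, 8.14 and 8.65 in GFP-crush, and at 7.74, 7.89, 6.70 and 8.02 in α9k1-crush. Here too the α9k1-naive libraries were below all others. Prx, periaxin, which anchors the outer Schwann cell membrane and whose promoter is printed above, stood at 6.38, 6.18, 6.03, 6.30 and 5.91 in GFP-naive and between 3.02 and 4.10 with a median of 3.74 in the 6 α9k1-naive libraries. Prx after crush was at 6.26, 5.99, 6.66 and 6.83 in GFP-crush, and at 6.73, 6.85, 5.72 and 6.36 in α9k1-crush. Its 6 α9k1-naive libraries were again below all others (log2 fold change -2.33 ± 0.30 SE, adjusted p = 6.94e-05).

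The other 5 myelin protein genes had smaller falls. Mbp stood at 10.73, 11.002, 10.95, 11.04 and 10.65 in GFP-naive and between 9.11 and 9.84 with a median of 9.55 in the 6 α9k1-naive libraries, and its difference without lesion was -1.27 on the log2 scale (SE 0.25, adjusted p = 0.0019). Mbp after crush was at 11.82, 11.38, 11.80 and 12.08 in GFP-crush, and at 11.25, 11.48, 10.34 and 11.31 in α9k1-crush. The GFP-crush libraries of Mbp were above all naive libraries. Pmp22 stood at 11.54, 11.83, 11.64, 11.85 and 11.48 in GFP-naive and between 10.49 and 10.80 with a median of 10.64 in the 6 α9k1-naive libraries, and differed by -0.91 ± 0.19 (SE; adjusted p = 0.00282). Pmp22 after crush was at 11.76, 11.52, 11.74 and 12.05 in GFP-crush, and at 11.33, 11.75, 10.84 and 11.68 in α9k1-crush. The library nearest to α9k1-naive in Pmp22 was α9k1-crush replicate 3. Mag, the myelin-associated glycoprotein of the membrane next to the axon, stood at 4.76, 5.22, 4.78, 4.90 and 4.62 in GFP-naive and between 3.42 and 4.37 with a median of 3.72 in the 6 α9k1-naive libraries (log2 fold change -1.26 ± 0.20 SE, adjusted p = 0.000391). Mag after crush was at 4.97, 4.76, 5.01 and 5.09 in GFP-crush, and at 5.38, 4.95, 4.94 and 5.33 in α9k1-crush. In all 3 genes the α9k1-naive libraries were the lowest of the 19. Mal, a raft proteolipid, fell by 2.36-fold (log2 fold change -1.24 ± 0.21 SE, adjusted p = 0.000592), and Cnp, a phosphodiesterase of noncompact myelin, fell least (log2 fold change -0.79 ± 0.13 SE, adjusted p = 0.000597).

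The factors and receptors of the lineage fell with myelin in part. Sox10, which specifies glia from the neural crest, stood at 8.28, 8.41, 8.36, 8.57 and 8.21 in GFP-naive and between 6.58 and 7.05 with a median of 6.81 in the 6 α9k1-naive libraries. Sox10 after crush was at 7.55, 7.70, 8.06 and 7.72 in GFP-crush, and at 6.26, 6.68, 6.06 and 6.42 in α9k1-crush. It was lower in every α9k1-naive library than in any GFP library (log2 fold change -1.45 ± 0.15 SE, adjusted p = 9.91e-06), and its α9k1-crush libraries overlapped with the lower part of α9k1-naive. Pou3f1, a promyelinating factor, stood at 4.25, 4.43, 4.74, 4.72 and 4.41 in GFP-naive and between 1.56 and 2.47 with a median of 2.02 in the 6 α9k1-naive libraries (log2 fold change -2.06 ± 0.11 SE, adjusted p = 1.04e-08). Pou3f1 after crush was at 4.61, 3.78, 4.44 and 4.67 in GFP-crush, and at 3.29, 3.31, 2.82 and 3.43 in α9k1-crush. Sox2, a factor of immature glia (-0.50 ± 0.14, adjusted p = 0.0196), and Erbb3, the glial neuregulin receptor (-0.85 ± 0.19, adjusted p = 0.00508), were also called lower. The call for Sox2 was lost without α9k1-naive replicate 6. Dhh, a hedgehog ligand of Schwann cells (-0.08 ± 0.16), and Ednrb, an endothelin receptor (0.35 ± 0.20), were not called, and Ptn, the growth factor pleiotrophin, was called higher (log2 fold change 0.40 ± 0.13 SE, adjusted p = 0.0395).

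Several satellite glia genes rose in the same α9k1-naive libraries in which myelin genes fell. Apoe stood at 15.56, 15.59, 15.63, 15.87 and 15.48 in GFP-naive and between 16.22 and 16.74 with a median of 16.43 in the 6 α9k1-naive libraries, an increase of 1.86-fold without lesion (log2 fold change 0.89 ± 0.15 SE, adjusted p = 0.000506). Apoe after crush was at 14.61, 14.55, 14.86 and 14.75 in GFP-crush, and at 14.39, 14.60, 14.02 and 14.13 in α9k1-crush. All 8 crush libraries of Apoe were below all 11 naive libraries. Glul, glutamine synthetase, stood at 8.41, 8.42, 8.49, 8.31 and 8.31 in GFP-naive and between 8.72 and 9.10 with a median of 8.84 in the 6 α9k1-naive libraries (log2 fold change 0.54 ± 0.12 SE, adjusted p = 0.00477). Glul after crush was at 7.78, 7.87, 8.04 and 8.02 in GFP-crush, and at 7.93, 7.89, 7.67 and 7.95 in α9k1-crush. The same held for Glul. Gfap, the filament protein of reactive glia, stood at 5.29, 5.53, 5.38, 5.36 and 5.33 in GFP-naive and between 6.39 and 7.07 with a median of 6.77 in the 6 α9k1-naive libraries, and rose by 2.41-fold (log2 fold change 1.27 ± 0.25 SE, adjusted p = 0.00198). Gfap after crush was at 5.40, 6.26, 5.72 and 5.72 in GFP-crush, and at 5.67, 6.49, 5.56 and 5.87 in α9k1-crush. The GFP-crush libraries of Gfap overlapped with GFP-naive, and the α9k1-crush libraries with α9k1-naive. In Apoe, Glul and Gfap the 6 α9k1-naive libraries were above all 5 GFP-naive libraries.

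Fabp7, the brain-type fatty acid-binding protein of satellite glia, stood at 9.37, 9.51, 9.66, 9.62 and 9.54 in GFP-naive and between 9.39 and 9.98 with a median of 9.79 in the 6 α9k1-naive libraries. Fabp7 after crush was at 8.52, 8.44, 8.93 and 8.66 in GFP-crush, and at 7.06, 7.45, 6.61 and 6.93 in α9k1-crush. Its naive groups overlapped, and the call without lesion (log2 fold change 0.54 ± 0.14 SE, adjusted p = 0.0139) was lost without covariates (0.23 ± 0.14, adjusted p = 0.213), as was that of Ptn (0.21 ± 0.11, adjusted p = 0.155). Slc1a3, the glutamate transporter of glia, was called higher (log2 fold change 0.77 ± 0.27 SE, adjusted p = 0.0532), although the groups overlapped. Its call was lost in 4 of the 19 fits that left out 1 library (GFP-naive replicate 1 or 4, GFP-crush replicate 3 or α9k1-crush replicate 3). Gja1, a connexin that couples satellite glia, stood at 6.35, 6.15, 6.22, 6.62 and 6.14 in GFP-naive and between 6.55 and 6.83 with a median of 6.61 in the 6 α9k1-naive libraries and was not called without lesion (log2 fold change 0.52 ± 0.24 SE, adjusted p = 0.144). Gja1 after crush was at 4.96, 5.0, 5.77 and 5.59 in GFP-crush, and at 5.35, 5.40, 4.54 and 4.65 in α9k1-crush.

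Not every gene of the satellite glia list rose. Sparcl1, a secreted matricellular protein, stood at 6.81, 6.57, 6.85, 6.50 and 6.35 in GFP-naive and between 4.49 and 5.0 with a median of 4.69 in the 6 α9k1-naive libraries, a fall of 3.8-fold without lesion (log2 fold change -1.93 ± 0.29 SE, adjusted p = 0.000274). Sparcl1 after crush was at 6.58, 7.18, 6.14 and 6.02 in GFP-crush, and at 7.76, 7.69, 6.96 and 6.87 in α9k1-crush. Entpd2, an ectonucleotidase that splits ATP (-1.38 ± 0.21, adjusted p = 0.000258), and Fxyd1, a regulator of the sodium pump (-1.21 ± 0.22, adjusted p = 0.0012), were lower as well. Of the 11 satellite glia genes 6 were called higher, against 11.4% of all genes, 3 lower, against 17.6% of all genes, and 2 were not called. S100b stood at 10.43, 10.52, 10.61, 10.62 and 10.48 in GFP-naive and between 10.02 and 10.43 with a median of 10.35 in the 6 α9k1-naive libraries and was not called (log2 fold change -0.18 ± 0.12 SE, adjusted p = 0.283). S100b after crush was at 10.57, 10.80, 10.75 and 10.89 in GFP-crush, and at 10.33, 10.17, 10.08 and 10.19 in α9k1-crush. Vim, Ptgds (prostaglandin D synthase), Cryab (a small heat shock protein), Plekhb1 and Fxyd3 were not called either, with log2 fold changes from -0.27 to 0.28. Without covariates S100b (-0.26 ± 0.09), Vim (-0.59 ± 0.14), Cryab (-0.39 ± 0.15) and Fxyd3 (-0.61 ± 0.25) were called lower and Ednrb (0.41 ± 0.14) higher.

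**Figure D2:**
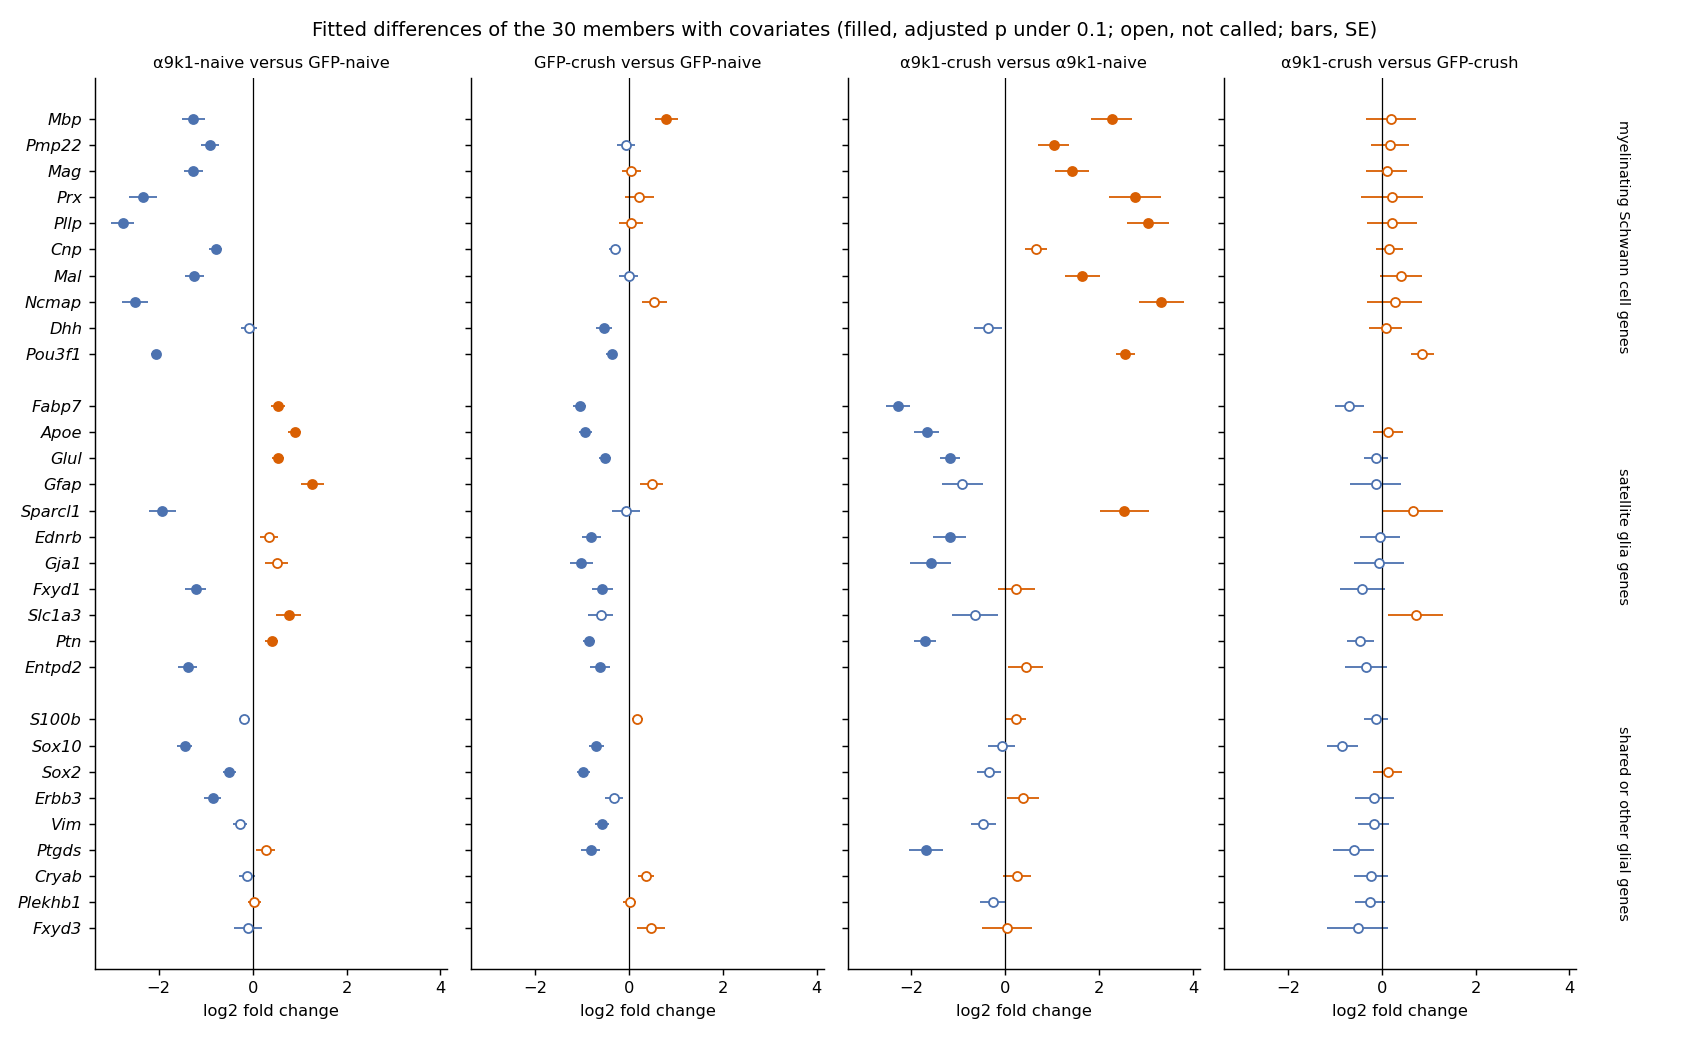
Fitted log2 fold changes of the 30 members in 4 comparisons, with covariates. Points are estimates and bars their SE; filled points passed an adjusted p of 0.1, orange points are above 0 and blue points below. All 8 myelin protein genes are filled and below 0 in the first panel, 7 of them are filled and above 0 in the third, and no point is filled in the last panel.

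The balance of myelin against satellite glia genes separated α9k1-naive from the other 3 groups in every library. The mean level of the 10 myelinating Schwann cell genes (the 8 myelin protein genes, Dhh and Pou3f1) was 7.63 ± 0.15 (SD, n = 5) in GFP-naive and 5.98 ± 0.16 (n = 6) in α9k1-naive. After crush it was 7.79 ± 0.24 (n = 4) with GFP and 7.35 ± 0.37 (n = 4) with α9k1. The mean of the 11 satellite glia genes was 8.42 ± 0.12 and 8.41 ± 0.14 in the naive groups, and 7.87 ± 0.18 and 7.43 ± 0.27 after crush. Myelin minus satellite glia was -0.77, -0.74, -0.85, -0.75 and -0.86 in GFP-naive, and ran from -2.53 to -2.31 in α9k1-naive. The GFP-crush libraries were at 0.13, -0.38, -0.18 and 0.13, and the α9k1-crush libraries at -0.05, -0.17, -0.33 and 0.22. With the median over the genes in place of the mean the naive groups lay closer, at -0.98 (-1.11 to -0.78) in GFP-naive and -1.41 (-1.65 to -1.25) in α9k1-naive, still without overlap. By the mean, the crush groups overlapped with each other and with no naive library, since both lay above GFP-naive and GFP-naive lay above α9k1-naive.

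**Figure D3:**
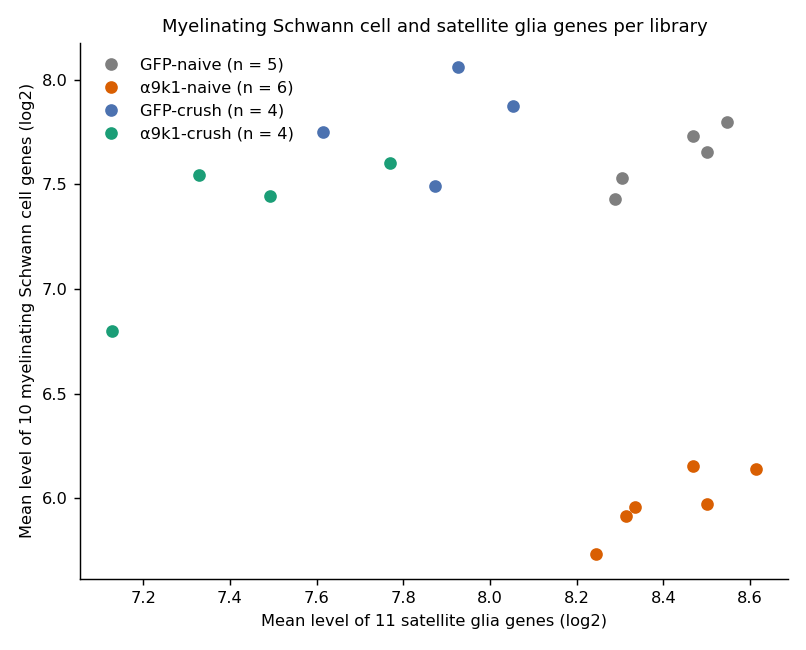
Mean log2 level of the 10 myelinating Schwann cell genes (vertical axis) against that of the 11 satellite glia genes (horizontal axis), 1 point per library. The 6 α9k1-naive libraries lie under 6.2 on the vertical axis and the other 13 above 6.8, while the 8 crush libraries lie to the left of the 11 naive ones.

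Of the 10 myelinating Schwann cell genes 9 had their lowest group mean in α9k1-naive, where 27.8% of all genes had theirs. Of the 11 satellite glia genes 8 had their highest mean in α9k1-naive (21.9% of all genes) and 8 their lowest in α9k1-crush (31.0% of all genes). The 9 genes assigned to neither list or to both cell types (S100b, Sox10, Sox2, Erbb3, Vim, Ptgds, Cryab, Plekhb1 and Fxyd3) had their lowest mean in α9k1-crush in 8 cases.

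After dorsal root crush in GFP libraries, most satellite glia genes fell and no myelin protein gene was called lower. GFP-crush against GFP-naive gave 14 of 30 members called lower, against 15.7% of all genes, and 1 called higher, against 7.39% of all genes. Fitted to these 2 groups alone, the counts were 7 lower and 2 higher. The share of all genes called in that fit is not given here, so these counts have no background to be read against. Without overlap 10 members lay below and 4 above, where 12.2% and 7.59% of all genes did so. Of the 11 satellite glia genes 8 were called lower, and their median log2 fold change was -0.61 against -0.08 for all genes. Fibroblast markers (6 of 7 called lower, median -1.28) and mural cell markers (3 of 5 called lower, median -1.22) moved the same way, and their part in these differences was not tested. The 8 myelin protein genes had a median of 0.05, and 1 of them, Mbp, rose (log2 fold change 0.79 ± 0.25 SE, adjusted p = 0.0444).

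With covariates Fabp7 fell furthest (log2 fold change -1.05 ± 0.14 SE, adjusted p = 0.000371), from 9.37 to 9.66 in GFP-naive to 8.44 to 8.93 after crush. Without covariates Gja1 (-0.97 ± 0.19) and Apoe (-0.94 ± 0.13) fell further than Fabp7 (-0.90 ± 0.15). Gja1 (-1.02 ± 0.24, adjusted p = 0.0141), Apoe (-0.93 ± 0.15, adjusted p = 0.00122) and Ednrb (-0.80 ± 0.20, adjusted p = 0.0155) fell as well, and in these 4 genes every GFP-crush library was below every GFP-naive library. Glul (-0.51), Ptn (-0.86), Entpd2 (-0.61) and Fxyd1 (-0.57) complete the list of satellite glia genes called lower. The call of Entpd2 was lost without GFP-naive replicate 2, 3 or 4, GFP-crush replicate 1 or α9k1-crush replicate 3, that of Fxyd1 was lost in 13 of the 19 fits without 1 library, and both were lost after median-centring.

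Transcription factors of the lineage fell too. Sox2 (log2 fold change -0.98 ± 0.14 SE, adjusted p = 0.00056) and Sox10 (log2 fold change -0.69 ± 0.16 SE, adjusted p = 0.00991) were lower without overlap, and Ptgds (-0.81), Vim (-0.57), Dhh (-0.53) and Pou3f1 (-0.37) were called lower. Dhh lost its call in 3 and Pou3f1 in 2 of the fits without 1 library (GFP-naive replicate 2 or GFP-crush replicate 1 or 2 for Dhh, GFP-naive replicate 2 or GFP-crush replicate 2 for Pou3f1). Pou3f1 was also not called without covariates (-0.14 ± 0.22) or under either other scaling.

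Genes that did not fall after crush in GFP libraries included most of the myelin list. Ncmap, Cryab and Fxyd3, besides Mbp, lay above GFP-naive without overlap, with fitted log2 differences of 0.54 ± 0.27, 0.36 ± 0.17 and 0.46 ± 0.30 that were not called. Without covariates, and likewise without α9k1-crush replicate 3, these 3 were called as well, which makes 4 members higher. In the fit without covariates 13 were called lower, and 11% of all genes were called higher and 20.1% lower. With median-centred libraries 5 members were called higher (Gfap, Cryab, S100b, Mbp and Ncmap) and 11 lower. In that scaling 1826 of the 12629 genes were called higher and 1180 lower. The rise of Mbp was lost without α9k1-naive replicate 6 or GFP-crush replicate 4, which leaves no member called higher, and after quantile normalisation. Pmp22, Mag, Prx, Pllp, Cnp, Mal, S100b, Gfap, Slc1a3, Sparcl1, Erbb3 and Plekhb1 were not called, with differences from -0.60 to 0.48.

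With α9k1, crush went with higher myelin genes and lower satellite glia genes. In α9k1-crush against α9k1-naive 9 members were called higher, against 4.47% of all genes, and 7 lower, against 5.27% of all genes. Without covariates the counts were 10 and 15, against 28.5% and 27.1% of all genes. Without overlap 9 members lay above and 11 below, where 17.4% and 16.1% of all genes did so. Of the 8 myelin protein genes 7 were called higher, with a median log2 fold change of 1.95 against 0.001 for all genes, and 6 of the 11 satellite glia genes were called lower. Marker lists of other cells moved in the same comparison as well: 4 of 7 fibroblast markers (median 1.61), 2 of 7 endothelial markers (median 1.44, all 7 above 0), 1 of 5 mural cell markers (median 0.96), 2 of 11 macrophage markers (median 0.76) and 4 of 16 neuronal markers (median 0.33) were called higher, and none lower. Without covariates 4 of 7 fibroblast markers (median 0.80), 4 of 7 endothelial markers (median 0.72) and 2 of 5 mural cell markers (median 0.66) were called higher. So were 3 of 11 macrophage markers (median 0.27) and 11 of 16 neuronal markers (median 0.48), and 1 fibroblast marker was called lower. The part of these marker lists in the glial differences was not tested.

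Ncmap rose by 10-fold (log2 fold change 3.32 ± 0.48 SE, adjusted p = 0.00187), Pllp by 8.2-fold (log2 fold change 3.04 ± 0.45 SE, adjusted p = 0.00202) and Prx by 6.79-fold (log2 fold change 2.76 ± 0.55 SE, adjusted p = 0.00952). These are also the 3 members with the largest falls in α9k1-naive against GFP-naive, and both comparisons share the α9k1-naive libraries. Without covariates their differences were 2.77 ± 0.21, 2.51 ± 0.21 and 2.74 ± 0.23, and that of Mbp was 1.59 ± 0.20. Mbp (2.26 ± 0.44), Mal (1.64 ± 0.37), Mag (1.41 ± 0.36) and Pmp22 (1.03 ± 0.34) were called higher with smaller changes, and Cnp was not called (log2 fold change 0.65 ± 0.24 SE, adjusted p = 0.13). The call of Pmp22 was lost in 16 of the 19 fits that left out 1 library, and that of Mag without α9k1-naive replicate 4. Outside the myelin proteins, Sparcl1 (log2 fold change 2.54 ± 0.53 SE, adjusted p = 0.0126) and Pou3f1 (log2 fold change 2.56 ± 0.20 SE, adjusted p = 3.09e-05) rose, and for Pou3f1 the difference was 1.18 ± 0.21 without covariates.

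Fabp7 fell by 4.87-fold in the same comparison (log2 fold change -2.28 ± 0.26 SE, adjusted p = 0.000509), from 9.39 to 9.98 in α9k1-naive to 6.61 to 7.45 in α9k1-crush. Ptn (-1.71 ± 0.24, adjusted p = 0.00144), Ptgds (-1.69 ± 0.36, adjusted p = 0.0135), Apoe (-1.68 ± 0.26, adjusted p = 0.00301), Gja1 (-1.59 ± 0.44, adjusted p = 0.0466), Ednrb (-1.19 ± 0.35, adjusted p = 0.0619) and Glul (-1.18 ± 0.21, adjusted p = 0.00672) were also called lower, each with every α9k1-crush library below every α9k1-naive library. The call of Gja1 was lost without α9k1-naive replicate 1 or 4, and that of Ednrb without α9k1-naive replicate 1 or 3, GFP-crush replicate 2 or α9k1-crush replicate 3 or 4. The other 14 members, among them Sox10 (-0.08 ± 0.28), S100b (0.23 ± 0.21) and Gfap (-0.92 ± 0.44), were not called, with log2 differences from -0.92 to 0.65. Without covariates Fabp7 (-2.75 ± 0.15) and Apoe (-2.18 ± 0.13) fell further, Cnp was called higher (0.31 ± 0.11), and lower calls were added for Slc1a3 (-1.62 ± 0.23), Sox2 (-1.02 ± 0.16), Gfap (-0.83 ± 0.18), Dhh (-0.73 ± 0.14), Vim (-0.68 ± 0.15), Sox10 (-0.43 ± 0.13), Plekhb1 (-0.42 ± 0.12) and Cryab (-0.36 ± 0.16). Fitted to these 2 groups alone, 1 member was called in each direction, and the share of all genes called in that fit is not given here.

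Between the crush groups no member was called with covariates. In α9k1-crush against GFP-crush limma called 0 of 30 members higher, against 0.728% of all genes, and 0 lower, against 0.182% of all genes, and 3 (Fabp7, Sox10 and Pou3f1) had an unadjusted p under 0.05. Without covariates 1 member was called higher, against 29.6% of all genes, and 21 were called lower, against 28.3% of all genes. Without overlap 12 members lay below and 0 above, where 20.8% and 20.0% of all genes did so. The estimates changed sign between both fits in 13 of the 30 members. No marker of the other cell types was called with covariates. Without them 5 of 7 endothelial (median -1.15) and 2 of 5 mural cell markers (median -0.48) were called lower, none higher. Macrophage markers had 2 higher and 3 lower of 11, fibroblast markers 1 and 1 of 7, and neuronal markers 6 and 2 of 16 (medians -0.38, 0.14 and 0.39). The part of these markers in the glial values was not tested.

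Sox10 was lower in every α9k1-crush library (6.06 to 6.68) than in every GFP-crush library (7.55 to 8.06), with a log2 difference of -0.84 ± 0.34 with covariates (adjusted p = 0.466) and -1.40 ± 0.14 without (adjusted p = 1.10e-06). Fabp7 was likewise lower in every library, with -0.69 ± 0.31 and -1.62 ± 0.16, and so was Ptn, with -0.46 ± 0.28 and -1.13 ± 0.13. Fxyd3 (-1.71 ± 0.29), Cryab (-1.30 ± 0.18), Ptgds (-1.25 ± 0.18), Fxyd1 (-1.12 ± 0.19), Sox2 (-1.12 ± 0.18), Vim (-0.88 ± 0.16), S100b (-0.56 ± 0.11) and Plekhb1 (-0.35 ± 0.13) were below without overlap too, with the values of the fit without covariates given. Also called lower without covariates were Entpd2 (-0.63 ± 0.17), Erbb3 (-0.54 ± 0.17), Dhh (-0.53 ± 0.15) and Apoe (-0.41 ± 0.14). Sparcl1 was the 1 member called higher without covariates (0.84 ± 0.24, adjusted p = 0.00651).

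Pou3f1 showed how far the covariates moved a value. Its 4 α9k1-crush libraries lay below the 4 GFP-crush libraries, and the fit without covariates gave -1.16 ± 0.23 (adjusted p = 0.000543), whereas the fit with them gave 0.86 ± 0.24 (95% confidence interval 0.34 to 1.38, adjusted p = 0.205). The myelin protein genes were between 0.10 and 0.41 with covariates, with wide intervals: -0.94 to 1.34 for Mbp and -1.20 to 1.62 for Prx. Each of these intervals holds differences of both signs. Without covariates Mbp (-0.67 ± 0.22), Pllp (-0.83 ± 0.23), Ncmap (-0.61 ± 0.23), Pmp22 (-0.37 ± 0.17) and Cnp (-0.30 ± 0.12) were called lower, while Mag (0.19 ± 0.18), Prx (-0.02 ± 0.25) and Mal (-0.16 ± 0.18) were not.

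**Figure D4:**
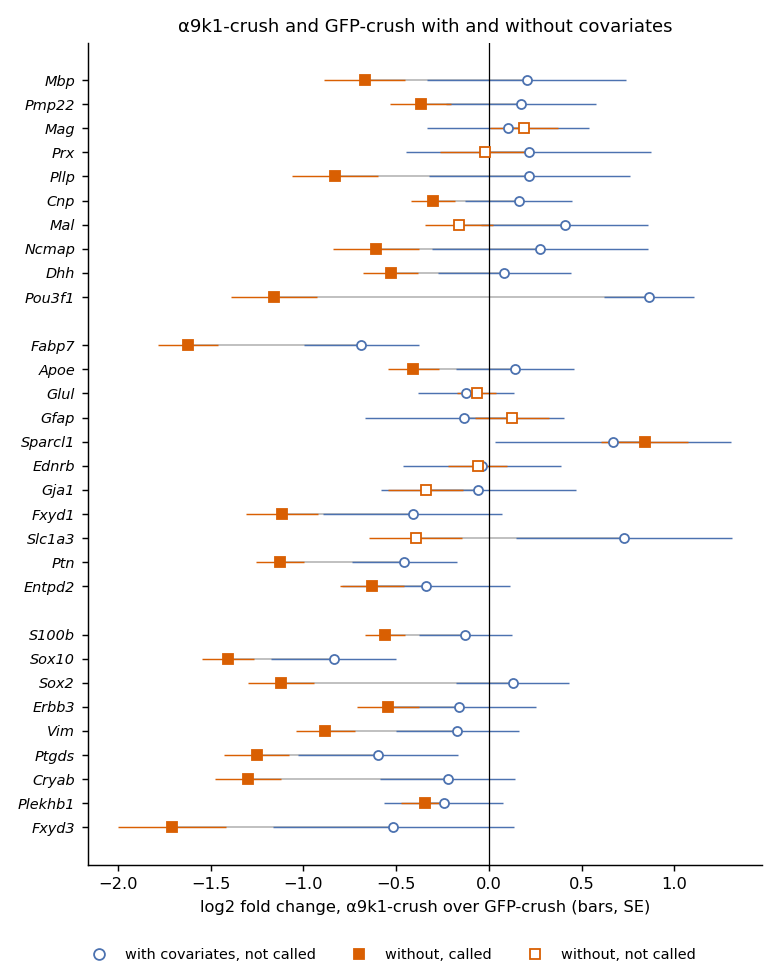
Log2 fold change of each member in α9k1-crush over GFP-crush, with covariates (blue circles) and without them (orange squares); bars are SE and filled symbols passed an adjusted p of 0.1. With covariates none of the 30 is filled, and without them 21 are filled to the left of 0 and 1, Sparcl1, to the right.

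The effect of crush differed between vectors for 7 members. The interaction, which is the crush difference with α9k1 minus the crush difference with GFP, was called higher for 6 members, against 1.35% of all genes, and lower for 1, against 0.847% of all genes. Without covariates these counts were 11 and 11, against 23.3% and 16.1% of all genes. Pllp (log2 fold change 2.99 ± 0.51 SE, adjusted p = 0.0133), Pou3f1 (log2 fold change 2.93 ± 0.23 SE, adjusted p = 3.11e-05), Ncmap (log2 fold change 2.78 ± 0.55 SE, adjusted p = 0.0284), Sparcl1 (log2 fold change 2.60 ± 0.60 SE, adjusted p = 0.0537), Prx (log2 fold change 2.54 ± 0.62 SE, adjusted p = 0.0693) and Mal (log2 fold change 1.65 ± 0.43 SE, adjusted p = 0.0845) had a higher crush difference with α9k1, and Fabp7 a lower one (log2 fold change -1.23 ± 0.29 SE, adjusted p = 0.0626). All 7 were called without covariates as well, with Pllp at 2.22 ± 0.30, Pou3f1 at 1.32 ± 0.31, Ncmap at 2.08 ± 0.31, Sparcl1 at 2.74 ± 0.31, Prx at 2.47 ± 0.33, Mal at 1.07 ± 0.24 and Fabp7 at -1.85 ± 0.21. The fit without covariates added higher calls for Mag (1.30 ± 0.24), Entpd2 (0.81 ± 0.23), Mbp (0.70 ± 0.29), Pmp22 (0.66 ± 0.22) and Cnp (0.54 ± 0.16). It added lower calls for Ptn (-1.33 ± 0.17), Ptgds (-1.33 ± 0.23), Apoe (-1.24 ± 0.18), Gfap (-1.23 ± 0.26), Slc1a3 (-1.12 ± 0.33), Fxyd3 (-1.10 ± 0.38), Cryab (-0.91 ± 0.23), Gja1 (-0.69 ± 0.27), Glul (-0.58 ± 0.14) and Plekhb1 (-0.47 ± 0.17). All 8 myelin protein genes had an interaction above 0, with a median of 1.56 against 0.07 for all genes. Markers of other cells had interactions above 0 too: all 7 fibroblast markers (4 called higher, median 2.89), all 5 mural cell markers (1 called higher, median 1.80) and all 7 endothelial markers (1 called higher, median 1.63). Of the 16 neuronal markers 10 were above 0 (2 called higher, median 0.25), and of the 11 macrophage markers 1 was (1 called lower, median -0.74). Without covariates 6 of 7 fibroblast, 4 of 5 mural cell, 3 of 7 endothelial and 7 of 16 neuronal markers were called higher. Their medians in that fit were 1.69, 1.18, 0.83 and 0.58. Lower calls without covariates went to 9 of 11 macrophage markers (median -1.62) and 1 neuronal marker. The part of these marker lists in the interaction of the myelin genes was not tested.

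Only Pllp and Pou3f1 kept their interaction calls in each of the 19 fits that left out 1 library. Ncmap lost its call without GFP-crush replicate 2, Sparcl1 and Fabp7 in 6 fits, Prx in 8 and Mal in 13. The count of higher calls fell to 3 without GFP-naive replicate 3 or 4, α9k1-naive replicate 3 or 4 or GFP-crush replicate 2. No member was called lower without GFP-naive replicate 3, α9k1-naive replicate 1, 2 or 4, GFP-crush replicate 2 or α9k1-crush replicate 4, and 4 were without α9k1-crush replicate 2.

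Other genes of the same cells, 30 by list and 26 in the table, were counted as well. In α9k1-naive against GFP-naive 13 were called lower, against 17.6% of all genes, and 1 higher, against 11.4% of all genes. Cldn19, a tight junction protein of Schwann cells, had the largest fall of the list (log2 fold change -2.87 ± 0.24 SE, adjusted p = 1.00e-06).

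Egr2, the transcription factor known to drive myelin genes, was the 1 gene of this list called higher in α9k1-naive. The paper counts Egr2 among the transcription factors tied to nerve regeneration that rose with α9k1. Which of the sorted cells held the Egr2 RNA was not tested. Egr2 stood at 6.23 ± 0.25 (SD, n = 5) in GFP-naive and 4.85 ± 0.31 (n = 4) in GFP-crush. The α9k1 groups were at 7.98 ± 0.20 (n = 6) without lesion and 7.30 ± 0.22 (n = 4) after crush. It was higher with α9k1 both without lesion (log2 fold change 1.71 ± 0.20 SE, adjusted p = 2.50e-05) and after crush (log2 fold change 2.76 ± 0.44 SE, adjusted p = 0.00598), so its level was highest in the libraries with the lowest myelin genes. In GFP-crush against GFP-naive 11 of the 26 were called lower and 2 higher, against 15.7% and 7.39% of all genes. In α9k1-crush against α9k1-naive 3 were called lower and 8 higher, against 5.27% and 4.47% of all genes. In α9k1-crush against GFP-crush 0 were called lower and 1 higher, against 0.182% and 0.728% of all genes. In the interaction 0 were called lower and 7 higher, against 0.847% and 1.35% of all genes. Without covariates 10 were called lower and 12 higher in α9k1-crush against α9k1-naive, against 27.1% and 28.5% of all genes. Between the crush groups that fit called 10 lower and 6 higher, against 28.3% and 29.6% of all genes. For the interaction it called 1 lower and 15 higher, against 16.1% and 23.3% of all genes.

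Markers of other cell types moved with these groups as well. The log2 of the summed level of the 7 fibroblast markers in the table (of 8 listed) was 9.57 to 9.89 in GFP-naive, 6.87 to 8.30 in α9k1-naive, 8.29 to 8.66 in GFP-crush and 7.98 to 8.46 in α9k1-crush, and 6 of the 7 were called lower in α9k1-naive against GFP-naive, where 17.6% of all genes were, and 1, Fbln1, was called higher. The 7 endothelial markers (of 11) summed to 6.96 to 7.51, 4.92 to 6.45, 6.88 to 7.67 and 5.27 to 6.76 in the same order, and all 7 were called lower without lesion. The 5 mural cell markers summed to 5.86 to 6.09, 4.08 to 5.07, 4.64 to 5.80 and 4.39 to 5.52. Of the mural cell markers 3 of 5 were called lower without lesion. The summed levels of these 3 lists were thus lower in α9k1-naive together with the myelin genes, and their part in that difference was not tested.

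Macrophage markers took another course. The 11 in the table (of 15) summed to 9.11 to 9.70 in GFP-naive, 10.69 to 11.19 in α9k1-naive, 11.25 to 11.89 in GFP-crush and 10.86 to 11.59 in α9k1-crush, and 9 of 11 were called higher both in α9k1-naive and in GFP-crush against GFP-naive, none lower, where 11.4% and 7.39% of all genes were called higher. Apoe, which macrophages also express, rose in the first of these comparisons and fell in the second. The part of macrophages in the level of Apoe was not tested.

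The 16 neuronal markers summed to 13.56 to 13.89 in GFP-naive, 12.96 to 13.28 in α9k1-naive, 14.09 to 14.55 in GFP-crush and 14.08 to 14.54 in α9k1-crush. In α9k1-naive against GFP-naive 5 of the 16 were called lower, against 17.6% of all genes, 1 was called higher (Prph, peripherin, 0.34 ± 0.13) and 10 were not called. The 3 neurofilament genes, which are high in the large neurons whose axons are myelinated, were lower in α9k1-naive, as the myelin genes were. Nefh stood at 9.41 ± 0.34 and 7.21 ± 0.16 (SD) in the naive groups (log2 fold change -2.32 ± 0.25 SE, adjusted p = 1.17e-05). After crush it stood at 10.08 ± 0.41 with GFP and 10.46 ± 0.37 with α9k1. Nefm (-2.42 ± 0.21) and Nefl (-2.10 ± 0.23) fell by similar amounts, and Thy1 (-0.53 ± 0.13) and Snap25 (-0.48 ± 0.17) were called lower as well. The 10 markers not called, among them Tubb3, Rbfox3 and Uchl1, had differences from -0.52 to -0.01. In GFP-crush 7 of the 16 were called higher and 1 lower against GFP-naive, against 7.39% and 15.7% of all genes. The part of the sorted neurons' makeup in the glial differences was not tested.

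**Figure D5:**
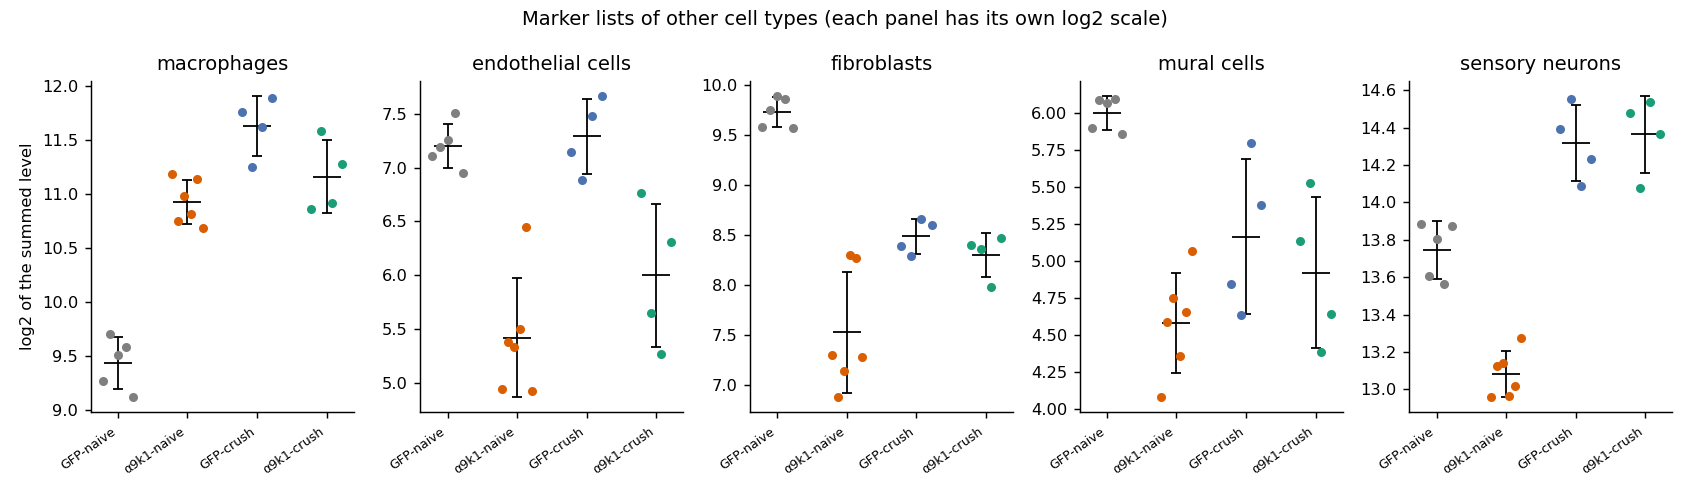
Log2 of the summed level of marker lists for 5 other cell types (each panel has its own scale), 1 point per library, with the group mean (bar) and SD (error bar). The α9k1-naive libraries are lowest for neuronal markers, with sums of 12.96 to 13.28, and the GFP-naive libraries are lowest for macrophage markers and highest for fibroblast markers.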

How the data were processed

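RNA of GFP-sorted DRG cells (5000 to 10000 cells per library by the labels) was made into cDNA with the SMART-Seq v4 kit. Per the labels and the study's methods, the authors aligned reads with STAR to mm10, collected alignment metrics with Picard, estimated gene counts with Salmon and normalised them with cqn. The deposited expression values are log2 counts, normalised by the authors for gene length and depth (-0.77 to 16.74), without gene names. The deposited gene table lists names in the same order: its mean level column, the authors' value, correlated with the row means at r = 0.959 across genes as deposited, and at 0.0810 when shifted by 1 row. The deposited alignment metrics are read counts, fractions, percent values and ratios such as strand balance, and were used as covariates and for depth. The authors' own fold changes and p-values (p-value columns of their comparisons) were not used.

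In this re-analysis all 19 libraries were fitted with limma 3.58.1 in R 4.3.3, with group means and 3 principal components of 48 alignment metrics (45.9, 24.1 and 11.5% of their variance). The study's batch term was not used here. P-values were adjusted by Benjamini-Hochberg over 12629 genes, and the threshold was 0.1. The fit was tested on simulated data with 200 changed genes. The members and lists were chosen with earlier results of these data known. Every member in the table is named, called members are given with values, 10 members (Sox10, S100b, Mbp, Mag, Pmp22, Fabp7, Glul, Gja1, Apoe and Gfap) by library (range and median in the group of 6), and other lists by counts and up to 4 examples. Some genes of these other lists were counted but are not reported here by name. Values of Prx, Pllp, Ncmap, Pou3f1 and Sparcl1 in each library, and of Egr2, were added after they were seen. Levels showed little relation to exon length (r = 0.0418 across 12610 genes). Low values rest on few reads, and the number of libraries and their depth limit the precision of such genes. The alternatives were no covariates, only the groups compared, a filter that left out the lowest 25% of genes, quantile normalisation, median-centred libraries, array weights, a replicate block and leaving out each library. Figures were drawn with matplotlib 3.10.9.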

Additional observations from a re-analysis of the deposited data

Results flagged for a closer look

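In 140 sets of values (each member, and 5 mean levels, in each group), 3 had a library far from the rest by Dixon's criterion, where chance gives about 1 in 20. Fxyd1 was 10.39 in GFP-naive replicate 1, under the nearest library at 10.67. Erbb3 was 3.8 in α9k1-naive replicate 2, under the nearest at 4.31. Cryab was 7.5 in α9k1-crush replicate 3, under the nearest at 8.22, and this is the library that was lowest for 25 of the 30 members.

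The crush difference was not the same with α9k1 as with GFP for 7 members, by the limma interaction. It was higher with α9k1 for Pllp by 2.99, Pou3f1 by 2.93, Ncmap by 2.78, Sparcl1 by 2.60, Prx by 2.54 and Mal by 1.65 on the log2 scale, and for Fabp7 the interaction was -1.23. Without covariates these were 2.22, 1.32, 2.08, 2.74, 2.47, 1.07 and -1.85 in the same order.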

How the results depend on the processing

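Without covariates the members called changed to 1 higher and 21 lower in α9k1-crush against GFP-crush, 4 higher in GFP-crush against GFP-naive, 15 lower in α9k1-crush against α9k1-naive, and 11 higher and 11 lower in the interaction. Fitted to the groups compared alone, they were 2 higher and 7 lower in GFP-crush against GFP-naive, and 1 higher and 1 lower in α9k1-crush against α9k1-naive. The shares of all genes called in these fits are not given here. Quantile normalisation left 0 and median-centring gave 5 higher in GFP-crush against GFP-naive, where 1206 and 1826 of the 12629 genes were called higher. Median-centring and array weights each gave 2 lower in the interaction. Quantile normalisation gives Apoe, the top gene of every library, 1 value throughout, so its 3 calls were lost there by construction. With a replicate block, the counts were 6 higher and 4 lower in α9k1-crush against α9k1-naive, 6 higher and 13 lower in α9k1-naive against GFP-naive, and 2 higher (Ncmap and Pou3f1, not Pllp) and 0 lower in the interaction. The replicate numbers did not pair the libraries: over 25 same-number pairs the correlation of deviations from group means ran from -0.27 to 0.15 (median 0.020), with 4 over 0.1.

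Leaving out 1 library at a time gave, higher and lower, 5 to 6 and 14 to 15 members in α9k1-naive against GFP-naive, 0 and 0 in α9k1-crush against GFP-crush, 0 to 4 and 10 to 16 in GFP-crush against GFP-naive, 7 to 10 and 5 to 8 in α9k1-crush against α9k1-naive, and 3 to 9 and 0 to 4 in the interaction. The 59 calls of members kept their direction in every setting that gave a value. The median over the genes in place of the mean moved myelin minus satellite glia to -0.98 in GFP-naive and -1.41 in α9k1-naive, and the mean of all members in α9k1-naive to 6.89; quantile normalisation moved the difference in α9k1-naive to -2.33. The cause of these changes was not tested, and where a gene is low, depth limits what can be seen.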
